A study of Mus musculus with 9 samples.

Results

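Dermal cells with a low surface signal for CD49f were compared with dermal cells that had none, across all transcribed genes and with the usual cell type markers set aside. The comparison used 6 of the 9 libraries of the series, 3 of CD49f-low cells and 3 of CD49f-neg cells, and the 3 CD49f-high libraries entered the fit only through the shared estimate of spread. Of 84809 rows in the deposited expression table, 20523 had at least 1 FPKM (fragments scaled to transcript length and to the number of mapped fragments) in at least 3 of the 9 libraries and were tested. All libraries came from mesenchymal cells of the skin of newborn mice of the genotype Krt14 cre;Rosa26-mTmG, in which the keratin 14 promoter, active in keratinocytes, drives Cre recombinase, and a membrane reporter changes colour where Cre has acted. The cells were taken directly from the tissue, sorted by flow cytometry and lysed without culture. The labels give neither the reporter colour that was sorted nor the exact age, and nothing in them ties replicates to separate animals, so p-values here reflect only how far these samples spread, which may be technical.

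CD49f is the integrin α6 subunit, a receptor for the laminins of basement membranes. Skin dermis holds fibroblasts that make collagen, specialised mesenchyme at the base of hair follicles, pericytes and smooth muscle on vessels, nerve sheath cells and, in newborn mice, pigment cells. A gate on 1 surface receptor can therefore take in several of these cell types at once. In bulk RNA, fewer cells of a type and less RNA per cell cannot be told apart.

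Itga6, the gene of CD49f (row MERGE.25277, GRCm38 chromosome 2, 71745616 to 71858416, plus strand), had 6.05, 4.38 and 6.09 FPKM in CD49f-low cells, against 0.71, 0.433 and 0.283 FPKM in CD49f-neg cells. The libraries of the 2 gates did not overlap, in the order the labels give, and the gates had been set on the protein of this gene, so the difference is a check of the labels and no result. Depth was close to even, at an estimated 23.69 to 27.27 × 1e6 fragments per library, and the 10 most abundant rows held 47.5% to 54.6% of the FPKM sum in CD49f-low libraries, against 50.5% to 61.3% in CD49f-neg libraries.

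Most of the table was higher in CD49f-low cells. The fold change was positive in 16027 of the 20523 rows (78.1%), and its median was 0.21 log2 units on the log2(FPKM + 1) scale. The median log2(FPKM + 1) level of the rows tested was 2.027, 2.020 and 2.023 in the CD49f-low libraries, against 1.819, 1.835 and 1.729 in the CD49f-neg libraries. No CD49f-low library reached down to a CD49f-neg library. The CD49f-low libraries also had more rows at or above 1 FPKM, at 19573, 19275 and 19214, against 17620, 17089 and 16354 in CD49f-neg libraries. The shift was present in rows with a symbol (median 0.20) and without one (0.23), and on every autosome (0.18 to 0.23). It was 0.26 in rows with a mean under 1 FPKM and 0.09 in rows over 100 FPKM, the ends of the range of levels. The 21 rows of the mitochondrial genome had larger differences, with a positive difference in 21 of 21 and a median of 0.67 log2 units, or 0.41 after median-of-ratios scaling. Of the 21, 2 were called higher and no call held.

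The number of rows called depended on how this shift was treated. With FPKM as deposited, limma's moderated test with Benjamini-Hochberg adjustment called 3160 rows at an adjusted p under 0.05 (15.4% of those tested), 2623 higher (12.8%) and 537 lower (2.62%) in CD49f-low cells. With the replicate number as a block, 4916 rows were higher (24.0%) and 890 lower (4.34%). Median-of-ratios scaling, after which the median fold change was 0.01, gave 1117 higher (5.44%) and 1093 lower (5.33%). Quantile normalization gave 1040 (5.07%) and 1004 (4.89%). Scaling each library to a common FPKM sum left 1927 higher and 364 lower with a median of 0.24. The share of higher among all calls was thus 83.0% as deposited and 50.5% after median-of-ratios scaling. Whether CD49f-low cells held more RNA of most genes, or the FPKM scale placed them higher, was not tested, since the table holds no external standard.

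**Figure D1:**
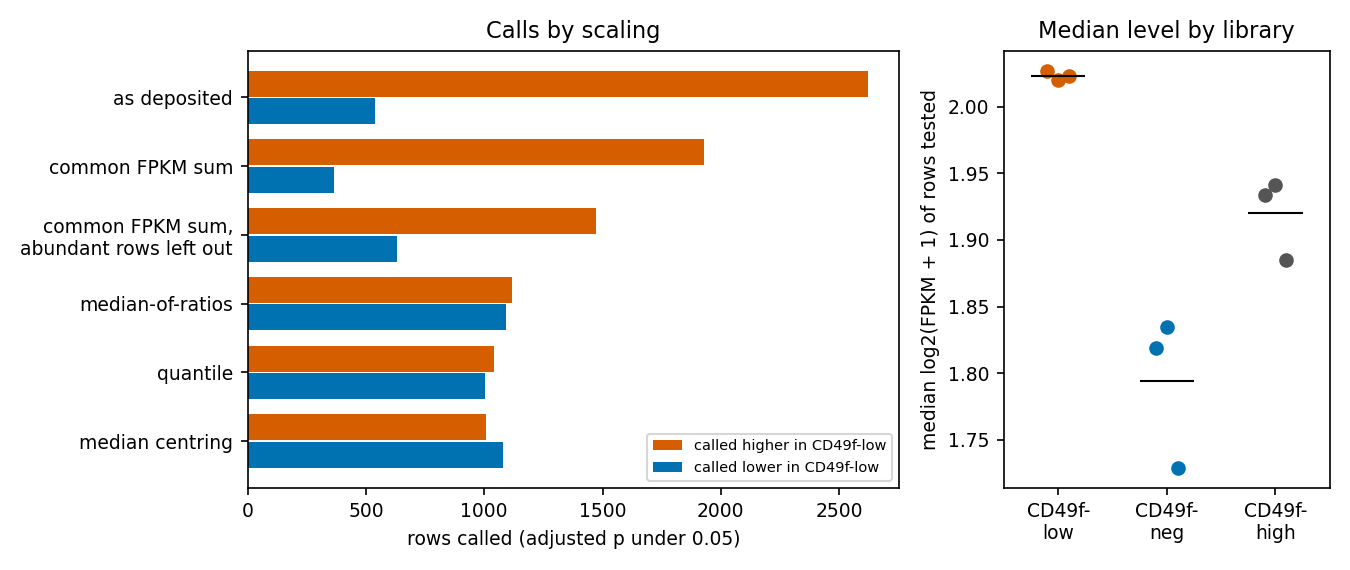
Left, rows called higher and lower in CD49f-low cells at an adjusted p under 0.05 under 6 scalings of the FPKM; as deposited 2623 were higher and 537 lower, and after median-of-ratios scaling 1117 and 1093. Right, median log2(FPKM + 1) of the 20523 rows in each library (points) with the mean of 3 libraries (line); the 3 CD49f-low libraries lie at 2.020 to 2.027 and the 3 CD49f-neg libraries at 1.729 to 1.835.

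A call is said below to hold when the row was called in 1 direction on the deposited values and again under both the median-of-ratios and the quantile scaling. This was so for 1482 rows (7.22% of those tested), 948 higher (4.62%) and 534 lower (2.60%), of which 554 and 324 carried a gene symbol. In all 1482 the 3 CD49f-low libraries lay outside the range of the 3 CD49f-neg libraries (a separation that 34.8% of all rows showed upward and 5.77% downward), and all 1482 were also called on the deposited values with the replicate block. With the block in all 3 scalings 941 of the 948 higher and all 534 lower calls were kept. Of the other calls, 1675 higher and 3 lower did not hold. The counts that hold without 1 library were lowest without CD49f-low replicate 3, at 600 higher and 335 lower. The lower count was 342 with CD49f-low replicate 2 left out, 348 with CD49f-neg replicate 2 left out and 354 with CD49f-neg replicate 3 left out. Fold changes are given below as deposited, and for 38 of the genes named first they were 0.18 to 0.29 log2 units lower after median-of-ratios scaling. On the log2(FPKM + 1) scale the changes of weakly expressed genes come out too small.

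**Figure D2:**
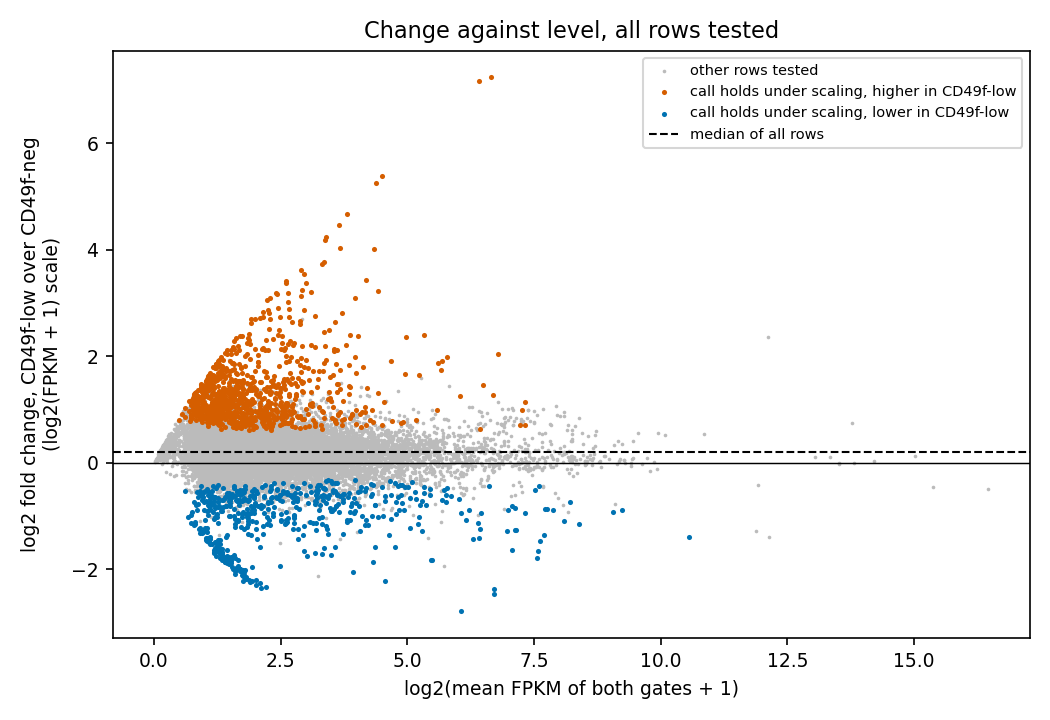
Log2 fold change of CD49f-low over CD49f-neg (y axis) against log2 of the mean FPKM of both gates plus 1 (x axis) for 20523 rows; coloured points are the 948 higher and 534 lower rows whose call holds. The dashed line is the median of all rows at 0.21, above the solid line at 0, and most grey points lie above 0 (78.1% of all rows).

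Markers of several cell types moved with the gate, and their part in the results below was not tested. Of 35 measured melanocyte markers 34 were called higher, with a summed level of 658 to 808 FPKM in CD49f-low libraries, 21.2 to 21.7 in CD49f-neg libraries, and with Gpr143 and Tspan10 at 0 in all CD49f-neg libraries. Of 31 dermal papilla markers 20 were called higher and 1 lower, with sums of 547 to 679 FPKM in CD49f-low and 261 to 304 FPKM in CD49f-neg libraries. Of 34 fibroblast markers 19 were called lower and none higher, with sums of 8371 to 9645 FPKM in CD49f-low and 17940 to 21386 FPKM in CD49f-neg libraries. Fibroblast markers were thus abundant in both gates. Other lists were higher in CD49f-low cells at low sums. Skeletal muscle markers (7 of 8 higher) summed to 31.1 to 44.4 FPKM in CD49f-low and 4.13 to 5.74 FPKM in CD49f-neg libraries, with Myf5 and Myod1 at 0 in all CD49f-neg libraries. Keratinocyte markers (7 of 13 higher) summed to 35.5 to 40.9 FPKM in CD49f-low and 7.62 to 9.29 FPKM in CD49f-neg libraries, and cartilage and bone markers (6 of 7 higher) to 22.8 to 31.9 FPKM in CD49f-low and 6.08 to 9.14 FPKM in CD49f-neg libraries. Schwann cell markers (6 of 18 higher and none lower, Mag at 0 in all CD49f-neg libraries) summed to 132 to 139 FPKM in CD49f-low and 95.1 to 118 FPKM in CD49f-neg libraries, and pericyte and smooth muscle markers (7 of 23 higher, 1 lower) to 202 to 304 FPKM in CD49f-low and 177 to 215 FPKM in CD49f-neg libraries. Immune and blood markers overlapped, at 80.5 to 305 FPKM in CD49f-low and 124 to 477 FPKM in CD49f-neg libraries, with Cd52, Tyrobp and C1qc at 0 in all CD49f-neg libraries, and endothelial markers summed to 29.6 to 31.1 FPKM in CD49f-low and 25.3 to 29.1 FPKM in CD49f-neg libraries. Adipocyte markers (2 of 9 higher) summed to 94.6 to 116 FPKM in CD49f-low and 38.5 to 60.5 FPKM in CD49f-neg libraries, and neuron markers (1 of 2 higher) to 7.93 to 10.1 FPKM in CD49f-low and 2.77 to 3.93 FPKM in CD49f-neg libraries. Of the 1482 calls that hold, 96 were of genes in these lists.

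The 15 genes outside the marker lists with the highest fold changes had varied roles. Alx4, a homeobox factor of mesenchyme (chromosome 2, 93642384 to 93681339), led with 21.7, 34.8 and 40.3 FPKM in CD49f-low cells, against 1.17, 2.32 and 2.64 FPKM in CD49f-neg cells, a rise of 3.44 log2 units (SE 0.35, limma adjusted p = 0.000215). Npy, which encodes the peptide neuropeptide Y, had 9.23, 13.6 and 17.9 FPKM in CD49f-low cells, against 0.386, 0.558 and 0.178 FPKM in CD49f-neg cells, and rose by 3.37 (SE 0.22, limma adjusted p = 1.85e-05). Tfap2c, an AP-2 transcription factor, had 13.1, 14.4 and 15.7 FPKM in CD49f-low cells, against 0.422, 0.721 and 0.883 FPKM in CD49f-neg cells. Its rise was 3.20 log2 units (SE 0.26, limma adjusted p = 5.26e-05). In CD49f-high cells Alx4, Npy and Tfap2c averaged 4.67, 1.08 and 1.34 FPKM, below the CD49f-low level.

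The Notch ligand Dll1 had 10.5, 12.9 and 13.8 FPKM in CD49f-low cells, against 0.38, 0.604 and 0.597 FPKM in CD49f-neg cells, and rose by 3.13 log2 units (SE 0.19, limma adjusted p = 1.59e-05). The secreted protein gene Scube3 averaged 12.8 ± 4.78 FPKM in CD49f-low cells and 0.797 ± 0.21 FPKM in CD49f-neg cells (SD, n = 3), and Gdf10, a member of the BMP family, 23.6 ± 6.67 FPKM in CD49f-low and 3.62 ± 0.974 FPKM in CD49f-neg cells. Agt, the precursor of angiotensin, averaged 21.9 ± 3.00 FPKM in CD49f-low and 2.36 ± 1.07 FPKM in CD49f-neg cells, and was higher still in CD49f-high cells, at 51.3 FPKM. Mgll, the lipase that breaks down monoacylglycerols and the endocannabinoid 2-arachidonoylglycerol, averaged 10.4 ± 2.07 FPKM in CD49f-low and 0.795 ± 0.178 FPKM in CD49f-neg cells. All 4 rose, by 2.87, 2.40, 2.81 and 2.65 log2 units in the order given.

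Other risers encode proteins of the matrix or its regulation. Lamc3, the laminin γ3 chain, had 52.7, 47.3 and 53 FPKM in CD49f-low cells, against 5.74, 12.2 and 10.5 FPKM in CD49f-neg cells, and rose by 2.36 log2 units (SE 0.29, limma adjusted p = 0.00061). It averaged 9.14 FPKM in CD49f-high cells, so that its level was highest in the low gate. Agrn, agrin, a heparan sulphate proteoglycan of basement membranes, had 22.5, 26.4 and 30.4 FPKM in CD49f-low cells, against 3.93, 4.57 and 4.24 FPKM in CD49f-neg cells, and rose by 2.38 (SE 0.13, limma adjusted p = 9.74e-06). Col11a1, a fibrillar collagen chain best known from cartilage, averaged 11.9 ± 5.09 FPKM in CD49f-low and 0.928 ± 0.104 FPKM in CD49f-neg cells, and Serpine2, a protease inhibitor that blocks thrombin and plasminogen activators, 11.8 ± 3.01 FPKM in CD49f-low and 1.05 ± 0.209 FPKM in CD49f-neg cells. Smoc1, a calcium-binding matrix protein, averaged 21.8 ± 2.18 FPKM in CD49f-low and 4.06 ± 1.58 FPKM in CD49f-neg cells. Its rise of 2.22 was the least secure of the 15 (limma adjusted p = 0.025), and the adjusted p was 0.0629 to 0.0797 when CD49f-low replicate 1, 2 or 3 or CD49f-neg replicate 1 or 3 was left out. The remaining risers were Myo7a (2.75) and Pdlim3 (2.47), which encode an unconventional myosin and an actin-associated PDZ and LIM protein.

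The genes with the lowest fold changes were mostly secreted or matrix-bound. C1qtnf3, a secreted protein related to adiponectin (chromosome 15, 10952332 to 10980150), had 11.5, 22.2 and 12.1 FPKM in CD49f-low cells, against 64.5, 187 and 99.9 FPKM in CD49f-neg cells, and fell by 2.78 log2 units (SE 0.42, limma adjusted p = 0.00216). Cpe, carboxypeptidase E, which trims peptide hormones, had 23.5, 35.6 and 33.5 FPKM in CD49f-low cells, against 118, 209 and 203 FPKM in CD49f-neg cells, and fell by 2.45 (SE 0.24, limma adjusted p = 0.000162). Its relative Cpz, a carboxypeptidase that binds Wnt proteins, averaged 18.5 ± 3.66 FPKM in CD49f-low and 68.6 ± 14.3 FPKM in CD49f-neg cells (a fall of 1.83). In each of the 3 genes the lowest CD49f-neg library lay above the highest CD49f-low library, which the rule for naming these genes required.

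The paralogs Smoc1 and Smoc2 moved in opposite directions. Smoc2 had 7.92, 6.95 and 6.8 FPKM in CD49f-low cells, against 27.7, 46.2 and 39.2 FPKM in CD49f-neg cells, a fall of 2.21 log2 units (SE 0.17, limma adjusted p = 3.91e-05), while Smoc1 was higher in CD49f-low cells. Ltbp2, a microfibril protein, averaged 4.83 ± 0.612 FPKM in CD49f-low and 23.5 ± 5.94 FPKM in CD49f-neg cells (a fall of 2.05), Egfl6, a matrix protein with EGF repeats, 18.5 ± 2.27 FPKM in CD49f-low and 68.3 ± 8.14 FPKM in CD49f-neg cells (1.83), and Thbs2, thrombospondin 2, 85.1 ± 22.1 FPKM in CD49f-low and 293 ± 50.1 FPKM in CD49f-neg cells (1.79). Lgr5, a receptor for R-spondins that marks stem cells in several tissues, had 2.01, 3.42 and 2.6 FPKM in CD49f-low cells, against 7.11, 14.9 and 10.7 FPKM in CD49f-neg cells, and fell by 1.66 (SE 0.23, limma adjusted p = 0.00152). Gja1, connexin 43, the main gap junction protein of fibroblasts, had 108, 96.8 and 106 FPKM in CD49f-low cells, against 230, 299 and 340 FPKM in CD49f-neg cells, and fell by 1.46 (SE 0.22, limma adjusted p = 0.00202). The other fallers were Cdh6, Slc27a6, Apba1, Ogn, Ppp1r14a and Galnt16, which fell by 1.74, 1.73, 1.70, 1.58, 1.57 and 1.57 log2 units.

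**Figure D3:**
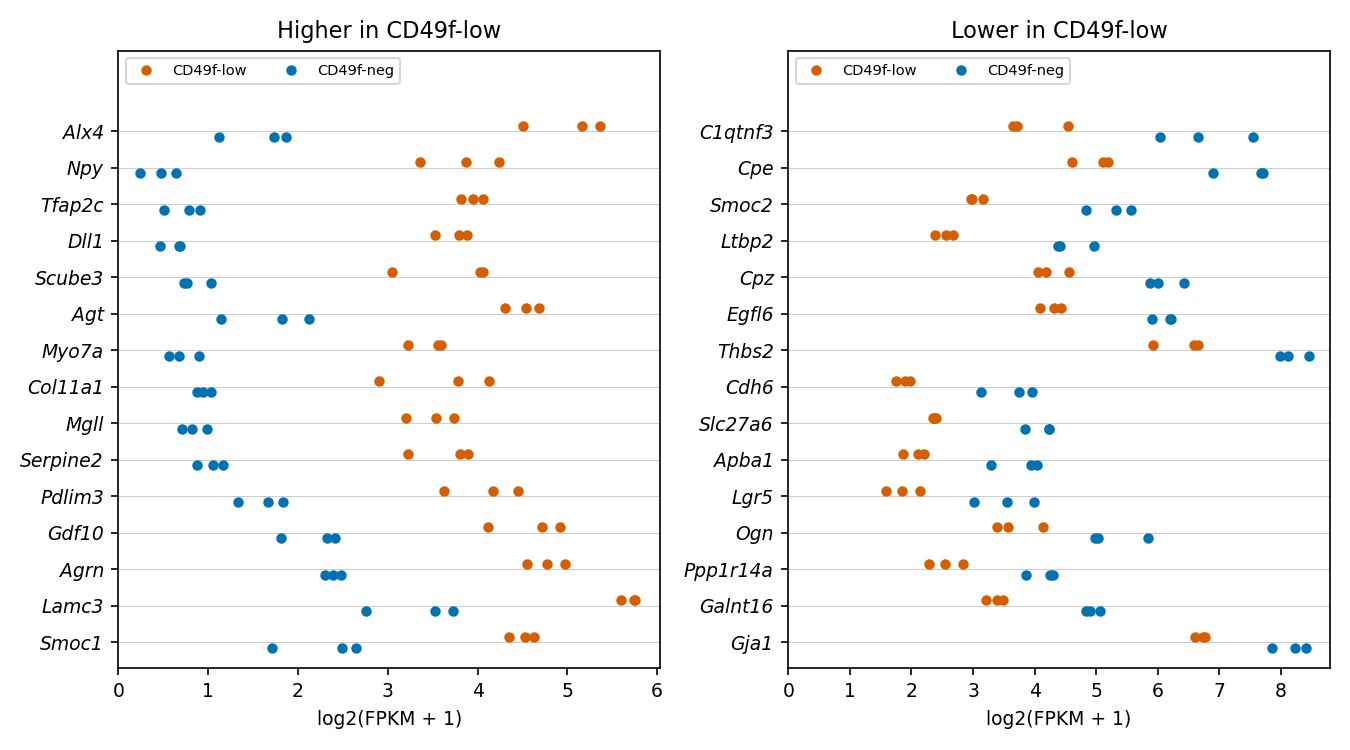
Log2(FPKM + 1) in each CD49f-low library (orange, upper point of a row) and each CD49f-neg library (blue, lower point) for 15 risers and 15 fallers, those with the most extreme fold changes among calls that hold, outside marker lists. In every row the orange and blue points do not overlap, from Alx4 (21.7 to 40.3 FPKM in CD49f-low, 1.17 to 2.64 in CD49f-neg) to Gja1 (96.8 to 108 FPKM in CD49f-low, 230 to 340 in CD49f-neg).

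Among abundant genes (a mean over both gates of at least 100 FPKM) outside marker lists and predicted genes, 5 held a higher call. Cd24a, a small surface glycoprotein used to sort progenitors, had 169, 163 and 200 FPKM in CD49f-low cells, against 40.4, 42.6 and 42.9 FPKM in CD49f-neg cells, and rose by 2.05 log2 units (SE 0.23, limma adjusted p = 0.000401). Of the 5, 3 encode basement membrane proteins, namely the collagen IV chains Col4a1 (185, 225 and 246 FPKM in CD49f-low, against 96.6, 101 and 95.7 FPKM in CD49f-neg cells) and Col4a2 (112, 160 and 166 FPKM in CD49f-low, against 50.6, 68.5 and 57.9 FPKM in CD49f-neg cells), which share a promoter region, and nidogen 1, Nid1 (169, 221 and 223 FPKM in CD49f-low, against 113, 113 and 82.6 FPKM in CD49f-neg cells). They rose by 1.14, 1.29 and 0.99 log2 units, and the last was Cfl1, cofilin, by 0.72. Of the abundant genes that fell, Gpc3, a glypican that binds growth factors at the surface, had 218, 213 and 189 FPKM in CD49f-low cells, against 489, 471 and 422 FPKM in CD49f-neg cells (a fall of 1.15, SE 0.13, limma adjusted p = 0.000465). The growth arrest gene Gas1 and the small leucine-rich proteoglycan Aspn fell by 1.27 and 1.26, and with Cpe, Thbs2 and Gja1, given above, they are the 6 with the lowest fold changes. Further abundant genes outside marker lists, such as Fkbp9, also held a lower call.

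Promoters were searched on both strands for 3 motifs in RefSeq windows of 300 bases about transcription starts (table built on GRCm38.p6), which matched 22 of the 30 risers and fallers above. The E-box CACATG is a form bound by the pigment cell regulator Mitf, and other E-box forms were not searched. It was in 10.5% of 475 windows of genes whose higher call holds and 8.2% of 269 windows of genes whose lower call holds. It was also in 7.7% of 10000 windows of genes tested and 14.2% of all 32851 windows. The AP-2 motif GCCNNNGGC (the same on both strands) was in 24.8%, 28.6%, 26.1% and 16.6%, and the AP-1 motif TGANTCA (also the same on both strands) in 5.7%, 5.6%, 4.7% and 7.8%. Whether these shares differ between genes whose higher call holds and all genes tested was not tested. Only 2 windows of those 22 genes had 2 copies of the E-box, and they are shown, with the copies in capitals, because 1 belongs to a riser and 1 to a faller: an internal start of Myo7a (chr7:98109199-98109498, minus strand) and the start of Ogn (chr13:49607765-49608064, plus strand).
Myo7a: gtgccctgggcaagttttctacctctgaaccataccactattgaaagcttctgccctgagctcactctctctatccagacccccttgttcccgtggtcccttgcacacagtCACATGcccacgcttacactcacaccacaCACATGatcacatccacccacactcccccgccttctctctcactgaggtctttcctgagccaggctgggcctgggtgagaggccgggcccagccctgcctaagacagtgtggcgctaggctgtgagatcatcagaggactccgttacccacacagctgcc
Ogn: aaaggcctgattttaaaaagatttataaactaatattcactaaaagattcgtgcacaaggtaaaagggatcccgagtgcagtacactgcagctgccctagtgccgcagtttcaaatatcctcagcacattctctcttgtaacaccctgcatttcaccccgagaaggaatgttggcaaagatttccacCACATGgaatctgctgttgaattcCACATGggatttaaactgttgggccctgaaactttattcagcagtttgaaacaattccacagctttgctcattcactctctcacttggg
Myo7a had 8.36, 11.1 and 10.8 FPKM in CD49f-low cells, against 0.481, 0.859 and 0.596 FPKM in CD49f-neg cells, and Ogn, a small leucine-rich proteoglycan, 16.5, 10.9 and 9.53 FPKM in CD49f-low cells, against 56.2, 30.7 and 31.6 FPKM in CD49f-neg cells. The same E-box count was thus found at an internal start of a gene that rose and at the start of a gene that fell. The other Myo7a window, at the gene's outer start (chr7:98119444-98119743), had 0 copies.

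Genes of the Wnt pathway changed in both directions. Wnt proteins bind Frizzled receptors to stabilise β-catenin or to steer cell polarity, R-spondins amplify the signal through Lgr receptors, and Dkk and Frzb proteins block it. Of 45 measured Wnt ligands and modulators, 10 were called higher and 2 lower, and 9 and 2 of these calls held. By comparison, 12.8% of all rows were called higher and 2.62% lower, and 4.62% and 2.60% held. With 2 lower calls in 45, the lower side is near the share of all rows. Wnt5a, the ligand best known for polarity signalling, had 13.5, 17.1 and 18.8 FPKM in CD49f-low cells, against 5.44, 6.27 and 6.01 FPKM in CD49f-neg cells, and rose by 1.33 log2 units (SE 0.13, limma adjusted p = 0.000207). The receptor Fzd10 rose by 1.54, the inhibitor Dkk2 had 8.48, 7.83 and 11.3 FPKM in CD49f-low cells, against 2.2, 2.48 and 3.1 FPKM in CD49f-neg cells (limma adjusted p = 0.00185), and the R-spondin Rspo1 averaged 17.2 ± 5.32 FPKM in CD49f-low and 5.44 ± 1.34 FPKM in CD49f-neg cells (a rise of 1.48). The R-spondin receptors split, with Lgr6 and Lgr4 higher by 1.56 and 0.75 and Lgr5 lower by 1.66. The median fold change of the 45 was 0.19, near the 0.21 of all rows, and -0.04 after median-of-ratios scaling, where 9 were called higher and 5 lower.

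Growth factor ligands changed in both directions, with 9 of 62 called higher and 7 lower, of which 6 and 7 held. Over all rows 12.8% were called higher and 2.62% lower, and 4.62% and 2.60% held. The count called higher is thus near the share of the whole table, while both counts that hold are above it. The platelet-derived growth factors differed by chain. Pdgfd had 0.199, 0.327 and 0.232 FPKM in CD49f-low cells, against 2.24, 2.73 and 3.6 FPKM in CD49f-neg cells, and fell by 1.61 log2 units (SE 0.14, limma adjusted p = 9.54e-05). Pdgfa averaged 1.57 ± 0.161 FPKM in CD49f-low and 0.403 ± 0.0985 FPKM in CD49f-neg cells, and Pdgfb 0.984 ± 0.0845 FPKM in CD49f-low and 0.0948 ± 0.0175 FPKM in CD49f-neg cells, rises of 0.87 and 0.86. Endothelin 3, Edn3, a ligand of the melanocyte receptor Ednrb, had 7.97, 6.74 and 7.73 FPKM in CD49f-low cells, against 1.98, 3.24 and 3.53 FPKM in CD49f-neg cells (a rise of 1.13, SE 0.24, limma adjusted p = 0.0122, and 0.0782 with a pseudocount of 0.1), and its receptor gene averaged 37.8 FPKM in CD49f-low and 3.1 FPKM in CD49f-neg cells. The inhibin β chain Inhbb had 8.16, 5.15 and 6.66 FPKM in CD49f-low cells, against 17.3, 17.3 and 19.4 FPKM in CD49f-neg cells, and fell by 1.33 (limma adjusted p = 0.00281). Of 10 measured insulin-like growth factor binding, PAPP-A and stanniocalcin genes, 2 were called higher and 1 lower, and these calls held. Igfbp7 rose by 1.88 and Igfbp3 (132, 124 and 135 FPKM in CD49f-low, against 58.9, 51.5 and 32.8 FPKM in CD49f-neg cells) by 1.47. Htra1 averaged 45 FPKM in CD49f-low and 95.1 FPKM in CD49f-neg cells and fell by 1.08 (limma adjusted p = 0.00271). The median of the 10 was -0.11 log2 units, against 0.21 over all rows. Igf2, the abundant ligand, did not pass the test (207, 183 and 186 FPKM in CD49f-low, against 223, 367 and 274 FPKM in CD49f-neg cells, limma adjusted p = 0.241).

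Of 38 receptor tyrosine kinases and their adaptors, 16 were called higher and 0 lower, and 10 calls held. Over all rows 12.8% were called higher and 2.62% lower, and 4.62% held a higher call. A count of 0 lower in 38 is thus near the share of the whole table. Without CD49f-low replicate 3, CD49f-neg replicate 2 or CD49f-neg replicate 3 the called count was 10. After median-of-ratios scaling 10 were called higher and 2 lower. Fgfr1, a fibroblast growth factor receptor, had 95.6, 83.3 and 94.3 FPKM in CD49f-low cells, against 37.9, 38.9 and 36.4 FPKM in CD49f-neg cells, and rose by 1.25 log2 units (SE 0.15, limma adjusted p = 0.000587). It averaged 20.7 FPKM in CD49f-high cells, so both other gates lay under the CD49f-low range. The ETS factors Etv1, Etv4 and Etv5, known targets of fibroblast growth factor signalling, rose by 0.85, 1.09 and 0.83 log2 units, and Ntrk2, a neurotrophin receptor, by 1.27. The median over the 38 genes was 0.49, against 0.21 over all rows.

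Guidance receptors and ligands changed in both directions. Of 58 semaphorins, plexins, ephrins, netrins and slits with their receptors, 16 were called higher and 5 lower, of which 8 and 5 held. Shares over all rows were 12.8% and 2.62% called, and 4.62% and 2.60% that hold. The counts were 10 higher without CD49f-low replicate 3, and 3 lower when CD49f-low replicate 1, 2 or 3 or CD49f-neg replicate 2 or 3 was left out. Ephb6, an Eph receptor without kinase activity, had 13.8, 19.8 and 20.7 FPKM in CD49f-low cells, against 2.5, 3.74 and 3.64 FPKM in CD49f-neg cells, and rose by 2.15 log2 units (SE 0.20, limma adjusted p = 0.000126). The netrin receptor Unc5b rose by 1.39, while the ligand Ntn1 fell by 0.89 (45.6, 50.3 and 55.9 FPKM in CD49f-low, against 74.7, 101 and 110 FPKM in CD49f-neg cells, limma adjusted p = 0.0275). The calls of Ntn1 and Ephb3 were the 2 lost without each of those 5 libraries, with limma adjusted p from 0.0582 to 0.0996. Of the 5 that fell, Sema3d, Sema3f and Ntn1 are secreted ligands and Plxna4 and Ephb3 are receptors.

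G protein-coupled receptors named for their ligands were called lower in 9 of 46 cases and higher in 8, and 9 and 4 held. For all rows the shares were 2.62% lower and 12.8% higher called, and 2.60% and 4.62% that hold. Without CD49f-low replicate 3 the counts were 5 and 5. Receptors of contractile hormones and prostanoids were among those that fell. Oxtr, the oxytocin receptor, had 0.403, 0.488 and 0.229 FPKM in CD49f-low cells, against 2.62, 4.51 and 3.68 FPKM in CD49f-neg cells, and fell by 1.73 log2 units (SE 0.17, limma adjusted p = 0.000173). Ptgfr, the receptor of prostaglandin F2α, averaged 2.71 ± 0.323 FPKM in CD49f-low and 7.26 ± 0.998 FPKM in CD49f-neg cells, and Tbxa2r, the thromboxane receptor, 4.29 ± 0.921 FPKM in CD49f-low and 10.5 ± 2.85 FPKM in CD49f-neg cells, falls of 1.15 and 1.11. Of the 4 higher calls that hold, Ednrb and Mc1r belong to the melanocyte list. Among 37 orphan and adhesion receptors 7 higher and 2 lower calls held, led by Adgrg1, with 6.32, 9.59 and 9.77 FPKM in CD49f-low cells, against 0.0411, 0.0545 and 0 FPKM in CD49f-neg cells (a rise of 3.19, SE 0.16, limma adjusted p = 7.84e-06).

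Junction, channel and vesicle genes also changed by member. Cldn10, a claudin, had 4.04, 2.22 and 2.54 FPKM in CD49f-low cells, against 6.47, 7.62 and 8.06 FPKM in CD49f-neg cells, and fell by 1.11 log2 units (SE 0.19, limma adjusted p = 0.00433), as did Gja1 by 1.46. Syt4, a vesicle protein of the synaptotagmin family, had 6.53, 8.58 and 7.14 FPKM in CD49f-low cells and was listed at 0, 0 and 0.0188 FPKM in CD49f-neg cells (limma adjusted p = 1.86e-06). The row of Gria4, an AMPA-type glutamate receptor subunit, which also covers Gm23811 and is therefore uncertain as to its gene, had 0.358, 0.42 and 0.589 FPKM in CD49f-low cells, against 4.31, 6.26 and 7.76 FPKM in CD49f-neg cells, and fell by 2.26 (SE 0.18, limma adjusted p = 5.15e-05). A second AMPA subunit row, of Gria3 with Gm22413, fell by 1.04. Both glutamate receptor rows were thus lower in the low gate and the synaptotagmin was higher.

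Solute carriers had 27 of 178 members called higher and 1 lower, and 14 and 1 held. Over all rows 12.8% were called higher and 2.62% lower, and 4.62% and 2.60% held. The share of carriers called higher is thus near that of the whole table, and their median of 0.21 log2 units equals that of all rows. With the replicate block 43 were higher and 10 lower, and after median-of-ratios scaling 14 and 18. Amino acid carriers made up several of the calls that hold. Slc7a8 had 7.94, 7.58 and 6.23 FPKM in CD49f-low cells, against 0.478, 0.396 and 0.414 FPKM in CD49f-neg cells (a rise of 2.52 log2 units, SE 0.21, limma adjusted p = 7.04e-05), and Slc38a1, a glutamine carrier, averaged 4.17 ± 0.593 FPKM in CD49f-low and 0.122 ± 0.0388 FPKM in CD49f-neg cells (limma adjusted p = 1.32e-05). Slc7a5 and its heavy chain partner Slc3a2, which together form a carrier of large neutral amino acids, rose by 1.29 and 1.00. The 1 faller was Slc27a6, a fatty acid carrier, at 4.18, 4.09 and 4.29 FPKM in CD49f-low cells, against 13.4, 17.8 and 17.9 FPKM in CD49f-neg cells. Of the 15 that hold, 3 belong to the melanocyte list.

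Motor and actin genes rose in 11 of 51 cases and fell in 2 (over all rows 12.8% and 2.62%). Of these calls 6 and 2 held (4.62% and 2.60% of all rows). Under the replicate block 19 and 2 were called (24.0% and 4.34% of all rows). Myo10, the myosin that carries cargo to the tips of filopodia, had 14.6, 14.8 and 17.3 FPKM in CD49f-low cells, against 3.59, 3.46 and 2.96 FPKM in CD49f-neg cells (a rise of 1.94 log2 units, SE 0.12, limma adjusted p = 1.59e-05). Kif26b, a kinesin-family protein linked to Wnt5a signalling, averaged 8.27 ± 2.34 FPKM in CD49f-low and 1.07 ± 0.287 FPKM in CD49f-neg cells, and Myo1e rose by 1.29. Both subunits of the nitric oxide receptor guanylate cyclase, among 45 cyclic nucleotide genes, were higher as well: Gucy1b3 had 6.04, 8.2 and 10.9 FPKM in CD49f-low, against 0.605, 0.641 and 0.619 FPKM in CD49f-neg cells (limma adjusted p = 8.49e-05), and the row of Gucy1a3, shared with Mir7010, rose by 1.57. These 2 subunits were higher still in CD49f-high cells, at 24.7 and 37.7 FPKM, where pericyte and smooth muscle markers summed to 1180 to 1990 FPKM.

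Transcription factors of mesenchymal patterning differed between the gates. For comparison, 12.8% of all rows were called higher and 2.62% lower, and 4.62% and 2.60% held. Of 43 homeobox factors outside the Hox clusters 10 were called higher and 2 lower, of which 6 and 2 held. Of 19 Hox cluster genes 2 and 1 were called, and the lower call, of Hoxb9 (limma adjusted p = 0.0428), was the one that held. The adjusted p of Hoxb9 was 0.0584 to 0.138 without CD49f-low replicate 2 or 3, any CD49f-neg library or CD49f-high replicate 2. Beside Alx4, its relative Alx1 had 1.64, 1.32 and 1.35 FPKM in CD49f-low cells, against 0.0353, 0 and 0 FPKM in CD49f-neg cells, and Msx2, a target of BMP signalling, 2.11, 4.6 and 3.17 FPKM in CD49f-low, against 0.3, 0.283 and 0.389 FPKM in CD49f-neg cells (rises of 1.27 and 1.66 log2 units, limma adjusted p = 9.72e-05 and 0.000487). Forkhead, SOX, T-box, RUNX and GATA factors were called higher in 15 of 32 cases and lower in 0, with 6 calls that hold. Without CD49f-low replicate 3, CD49f-low replicate 2 or CD49f-neg replicate 3 the called count was 7, 8 and 9, and after median-of-ratios scaling 8 were higher and 1 lower. Runx3 had 9.13, 11 and 14.4 FPKM in CD49f-low cells, against 3.19, 3.01 and 3.44 FPKM in CD49f-neg cells (a rise of 1.55, SE 0.21, limma adjusted p = 0.00112), and Sox6 averaged 2.28 ± 0.495 FPKM in CD49f-low and 0.00372 ± 0.00115 FPKM in CD49f-neg cells.

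Among 75 bHLH and zinc finger regulators 14 were called higher and 7 lower (over all rows 12.8% and 2.62%), and 11 and 7 held (4.62% and 2.60%). Hey1, a Notch target, had 10.2, 13 and 12.1 FPKM in CD49f-low cells, against 2.83, 2.93 and 2.33 FPKM in CD49f-neg cells (limma adjusted p = 2.1e-05), and Hey2, its relative, was higher by 2.11 log2 units. The lower calls were 2 or 3 when CD49f-low replicate 1, 2 or 3 or CD49f-neg replicate 2 or 3 was left out. They included the odd-skipped factors Osr1 (10.1, 13.5 and 13.4 FPKM in CD49f-low, against 22.5, 26.6 and 26.9 FPKM in CD49f-neg cells) and Osr2 (25.8, 20.6 and 24.8 FPKM in CD49f-low, against 39.6, 50.5 and 57.5 FPKM in CD49f-neg cells), both regulators of connective tissue, which fell by 0.99 and 1.01. Osr1 had a limma adjusted p of 0.0207, and of 0.0503 to 0.0733 without CD49f-low replicate 1 or 3 or CD49f-neg replicate 2 or 3.

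Circadian clock genes were gathered into a list of 19 after their values were seen. Of its 18 measured members, 10 were called higher and 1 lower, and 7 and 1 held, beside 12.8% and 2.62% of all rows called and 4.62% and 2.60% that hold. Nr1d1, a repressor in the clock loop, had 6.21, 9.47 and 10.4 FPKM in CD49f-low cells, against 1.51, 1.75 and 1.39 FPKM in CD49f-neg cells (a rise of 1.90 log2 units, SE 0.19, limma adjusted p = 0.000202), and Arntl, Nr1d2, Rora, Bhlhe40, Bhlhe41 and Tef rose by 1.05, 0.92, 0.90, 1.29, 1.95 and 0.70. Hlf fell by 0.79, and Per1 (10.8, 6.64 and 10.2 FPKM in CD49f-low, against 9.67, 7.62 and 8.14 FPKM in CD49f-neg cells), Per2 and Clock did not pass the test. The time of day of each sort is not given in the labels.

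Among the gene families, the group of secreted matrix genes had the largest share of members whose lower call holds. Of 69 matricellular and other secreted matrix proteins 16 were called lower and 9 higher, and 16 and 6 held. None of the 69 was in the fibroblast marker list. The shares of all rows were 2.62% lower and 12.8% higher called, and 2.60% and 4.62% that hold. With the replicate block 27 were lower (4.34% of all rows). The median was -0.23 log2 units, against 0.21 over all rows. Beside the genes above, Svep1 (an adhesion protein), Adamtsl1 and Fbn2 (a microfibril protein) fell by 1.18, 1.19 and 0.88, and the higher calls were 5 without CD49f-low replicate 2 or 3. Npnt, nephronectin, a ligand of integrin α8β1 in basement membranes, averaged 3.47 FPKM in CD49f-low and 0.333 FPKM in CD49f-neg cells and rose by 1.74 (limma adjusted p = 2.33e-05). The summed fibroblast markers fell with this group, and whether the group moved apart from them was not tested.

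Matrix proteases changed in both directions, also within the ADAMTS family. Of 73 metalloproteases, cathepsins and inhibitors, 12 were called higher and 11 lower, and 7 and 11 held. Beside these stand 12.8% and 2.62% of all rows called, and 4.62% and 2.60% that hold. Without CD49f-neg replicate 3 the higher count was 7. The higher ones included 5 enzymes of the ADAMTS family, among them Adamts18 (5.82, 8.37 and 10.2 FPKM in CD49f-low, against 0.369, 0.903 and 0.894 FPKM in CD49f-neg cells, a rise of 2.39 log2 units, limma adjusted p = 0.000369) and Adamts20, which is needed for pigment cell spread in mouse skin (a rise of 2.22). Adamts2, the procollagen processing enzyme, and its relative Adamts14 fell by 1.22 and 0.73. Mmp2, a gelatinase, had 114, 96.6 and 86.9 FPKM in CD49f-low cells, against 177, 195 and 162 FPKM in CD49f-neg cells (a fall of 0.84, SE 0.19, limma adjusted p = 0.0166, and 0.0581 to 0.0698 without CD49f-low replicate 2 or 3 or CD49f-neg replicate 2), and its inhibitor Reck 24.2, 19.5 and 22.3 FPKM in CD49f-low, against 45, 50.9 and 54.3 FPKM in CD49f-neg cells (a fall of 1.15). The enzyme and this inhibitor were thus both lower.

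Genes that fold and export collagen were called lower more often than higher. Of 68 genes of collagen folding and secretion 10 were called lower and 3 higher, and 10 and 1 held, with a median of -0.14 log2 units. Whole-table shares were 2.62% lower and 12.8% higher called, and 2.60% and 4.62% that hold. The count lower was 30 after median-of-ratios scaling, 21 with the replicate block, 4 on a common FPKM sum, 5 with CD49f-neg replicate 2 left out and 6 with CD49f-low replicate 2 left out. Fkbp9, a prolyl isomerase of the endoplasmic reticulum, had 92.5, 104 and 94.5 FPKM in CD49f-low cells, against 163, 179 and 170 FPKM in CD49f-neg cells, and fell by 0.81 (SE 0.10, limma adjusted p = 0.000899). The collagen prolyl hydroxylase P3h1 and the coat protein Sec24d, which carries procollagen out of the endoplasmic reticulum, each fell by 0.60. On a common FPKM sum their limma adjusted p was 0.0893 and 0.0607, and that of P3h1 was 0.0566 without CD49f-low replicate 1 and 0.0532 without CD49f-neg replicate 2. The single higher call that held was Plod2, a lysyl hydroxylase of collagen, with 6.47, 6.8 and 7.2 FPKM in CD49f-low cells, against 4.74, 2.72 and 2.26 FPKM in CD49f-neg cells (a rise of 0.93, limma adjusted p = 0.012).

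**Figure D4:**
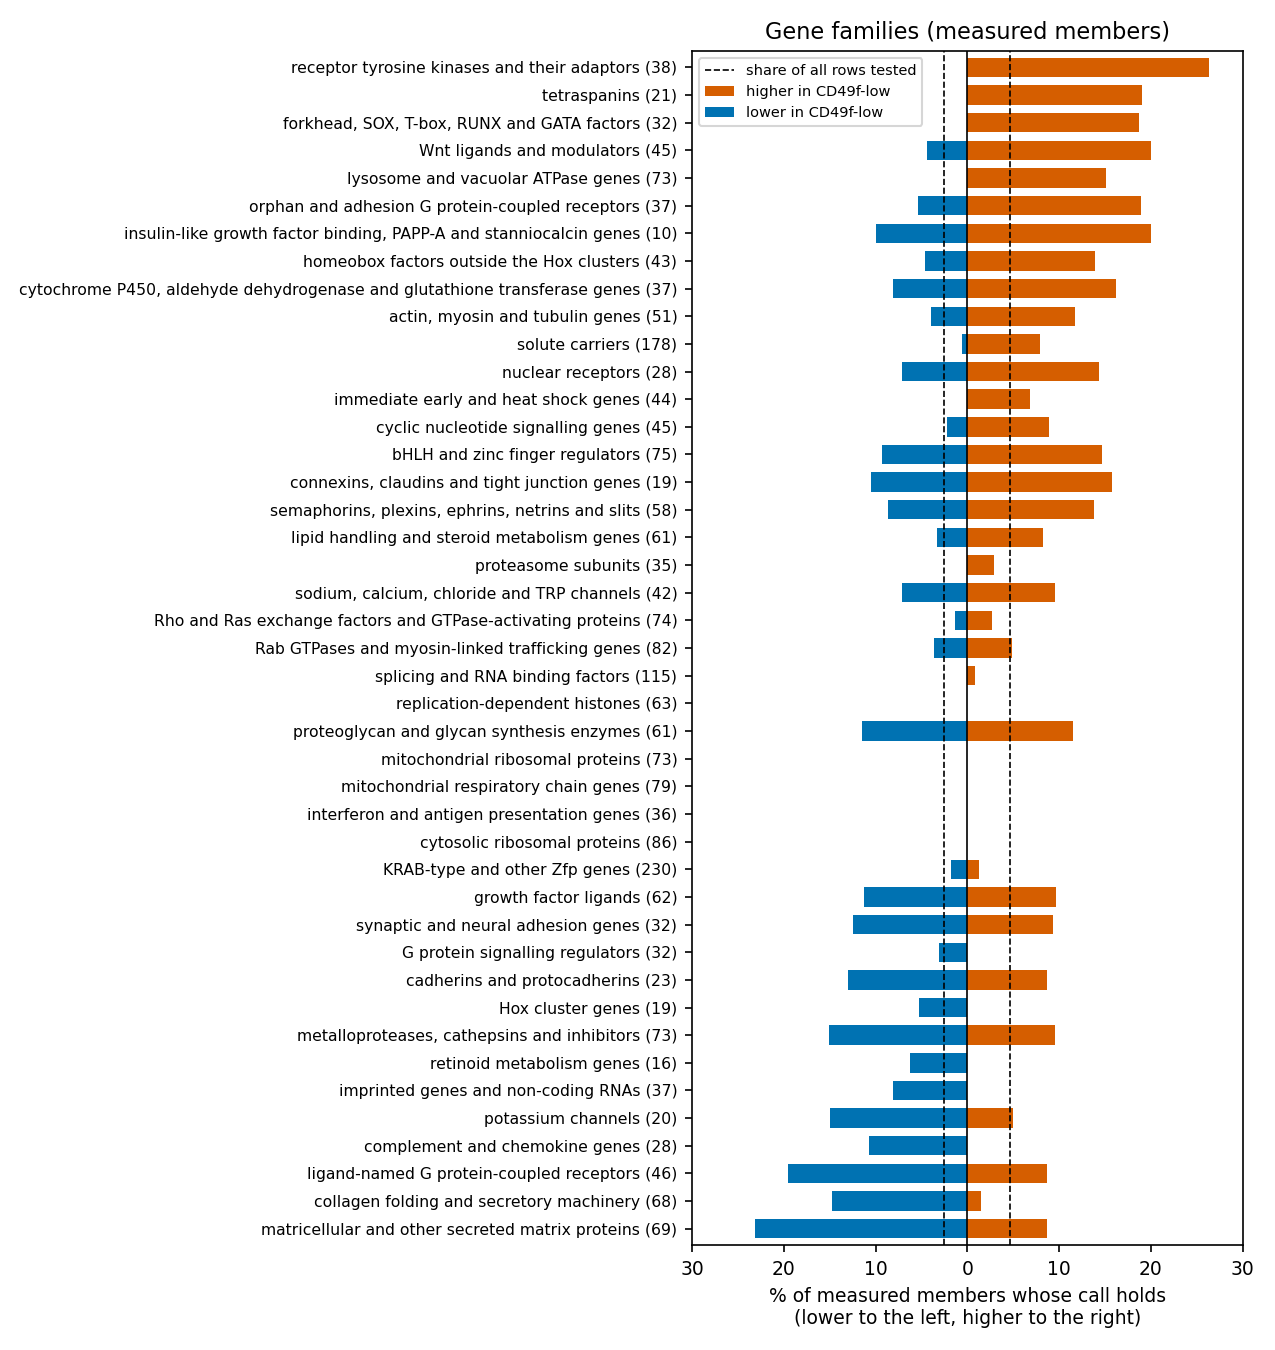
Share of the measured members of each of 43 gene families whose call holds, higher in CD49f-low cells to the right and lower to the left; the number measured is in brackets and the dashed lines mark the share over all rows tested (4.62% higher, 2.60% lower). Receptor tyrosine kinases (10 of 38) reach furthest to the right and secreted matrix proteins (16 of 69) furthest to the left, and 5 families have no call that holds.

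Of 73 lysosome and vacuolar ATPase genes 26 were called higher and 0 lower, and 11 calls held, while the other 47 did not pass the test. Among all rows 12.8% were called higher and 2.62% lower, and 4.62% held a higher call. The median was 0.30 log2 units, against 0.21 over all rows, and 0.07 against 0.01 after median-of-ratios scaling. The count was 15 without CD49f-low replicate 2, CD49f-low replicate 3 or CD49f-neg replicate 3, and after median-of-ratios scaling 12 were higher and 3 lower. The vacuolar ATPase pumps protons into lysosomes, melanosomes and other compartments. Atp6v1b2, a subunit of its catalytic part, had 11.7, 11.2 and 9.77 FPKM in CD49f-low cells, against 4.94, 4.58 and 3.83 FPKM in CD49f-neg cells, and rose by 1.13 log2 units (SE 0.13, limma adjusted p = 0.000466), and Atp6v0a1, a subunit of its membrane part, by 1.00. Of the 11, 7 were subunits or an accessory protein of this pump. Sort1, the sorting receptor sortilin, had 9.41, 8.24 and 9.27 FPKM in CD49f-low cells, against 1.46, 1.68 and 1.77 FPKM in CD49f-neg cells (a rise of 1.92, limma adjusted p = 3.12e-05).

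Housekeeping groups had few calls or lost nearly all of them with scaling. None of 86 cytosolic ribosomal protein genes was called, with a median of 0.15 log2 units that turned to -0.08 after median-of-ratios scaling. Of 79 respiratory chain genes 2 were called, of 73 mitochondrial ribosomal protein genes 4, and none of these held. Splicing and RNA-binding factors (18 of 115 higher, 0 lower, 43 with the replicate block) and proteasome subunits (9 of 35 higher) had 1 call each that held. Of all rows 12.8% were called higher, 24.0% with the block, and 4.62% held a higher call. The splicing count as deposited is thus near the share of the whole table. The splicing calls were 4 or 5 without CD49f-low replicate 2 or 3 or CD49f-neg replicate 3, and the proteasome calls 1 to 5 without any CD49f-low or CD49f-neg library or CD49f-high replicate 2. Their medians of 0.28 and 0.30 fell to 0.02 and 0.05 after median-of-ratios scaling. No splicing or proteasome gene was called lower under any of the 3 scalings.

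Replication-dependent histone genes stood above the shift. They supply histones for DNA replication, and their transcripts lack poly(A) tails. All 63 measured rows were higher in CD49f-low replicates 1 and 3 than in the CD49f-neg library of the same number, and 62 of 63 in replicate 2. Over all rows 78.1% had a positive fold change between the gates, and no count by replicate number was made for them. Their summed level was 12813, 7295 and 8988 FPKM in CD49f-low libraries, against 6292, 4288 and 5422 FPKM in CD49f-neg libraries, ratios of 2.04, 1.70 and 1.66 by replicate number. The sum was 9731, 5880 and 6314 FPKM in CD49f-high libraries, and in every gate replicate 1 was the highest. In limma's test 24 of 63 were called higher, 60 with the replicate block, 19 after quantile normalization and 0 after median-of-ratios scaling, where the median fell to 0.54 log2 units from 0.83 as deposited. The shares of all rows called higher were 12.8%, 24.0%, 5.07% and 5.44% in the same order. Without 1 library the count was between 1 (without CD49f-neg replicate 2 or CD49f-neg replicate 3) and 40 (without CD49f-high replicate 1), at 3, 15 and 5 without CD49f-low replicates 1, 2 and 3. None of the 24 calls therefore holds. How the library preparation captured RNA without poly(A) tails is not stated in the labels.

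The rows whose calls hold were not spread evenly over the genome. Neighbouring rows on the same strand, each with a call that holds in the same direction and at most 100 kb apart, formed 15 runs of at least 4 rows, 11 higher and 4 lower, with 221 rows in all. The rule was set after the values were seen. The longest run, on the plus strand of chromosome 7 (GRCm38, 94042573 to 94709171, 667 kb), held 100 rows, all lower in CD49f-low cells and 98 without a symbol, in the gap between Fam181b and Tenm4. It alone made up 18.7% of the 534 lower calls that hold. Its median row had 0.208, 0.171 and 0.19 FPKM in CD49f-low cells, against 2.68, 2.92 and 3.62 FPKM in CD49f-neg cells, and 0.112, 0.0226 and 0.0143 FPKM in CD49f-high cells. The fold changes ran from -2.34 to -0.98 log2 units with a median of -1.78, and the largest limma adjusted p was 0.0015.

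Most rows of the chromosome 7 run were short, with a median span of 1397 bases, and 1 row, MERGE.42030, spanned all 667 kb. Levels in CD49f-neg cells declined along the listed plus strand. Over the first 67 rows, up to 212 kb from the run's start, the median of the first 5 rows was 5.30 FPKM and of the last 5 rows 1.78 FPKM (Spearman's rho -0.90 across rows, which share their libraries). From 309 to 480 kb the level began higher again, at 3.14 FPKM over the first 5 of 30 rows, and ended at 2.60 FPKM (rho -0.58). The ratio of CD49f-low to CD49f-neg was close to even along the run, at 0.0639 and 0.0623 at the ends of the first stretch. The flanking genes did not fall. Tenm4, a teneurin, had 3.53, 4.11 and 5.45 FPKM in CD49f-low cells, against 1.1, 1.65 and 1.53 FPKM in CD49f-neg cells, and was called higher (1.14, limma adjusted p = 0.0207), though this call did not hold, and Fam181b (3.6, 4.29 and 4.6 FPKM in CD49f-low, against 1.96, 3.02 and 2.52 FPKM in CD49f-neg cells) did not pass the test.

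The second run lay on the minus strand of chromosome 14 (16942279 to 17170738, 228 kb) between Rarb and Thrb and went the other way. All 59 of its rows, none with a symbol, were higher in CD49f-low cells, by 1.08 to 1.86 log2 units (median 1.40, largest limma adjusted p = 0.00302). Its median row had 2.05, 1.61 and 2.36 FPKM in CD49f-low cells, against 0.124, 0.097 and 0.144 FPKM in CD49f-neg cells, and 0.132, 0.0747 and 0.0196 FPKM in CD49f-high cells. Here too the level declined along the listed strand, minus, on which the right end comes first. The strand of the libraries is not stated, so the direction of transcription was not tested. The 5 rows at the right end had a median of 3.35 FPKM in CD49f-low cells and the 5 at the left end 1.43 FPKM (rho 0.84 with coordinate). Rarb, a retinoic acid receptor on the left, had 2.18, 1.46 and 1.82 FPKM in CD49f-low cells, against 0.671, 0.69 and 0.68 FPKM in CD49f-neg cells, and rose by 0.74 (limma adjusted p = 0.00516), while Thrb, a thyroid hormone receptor on the right, did not pass the test (1.73, 2.19 and 2.07 FPKM in CD49f-low, against 0.867, 1.57 and 0.505 FPKM in CD49f-neg cells). Outside the 2 runs 889 higher and 434 lower calls hold. Rows of a run lie close together on 1 strand and share their libraries, so they are not independent results, and how many transcripts they stand for was not tested.

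**Figure D5:**
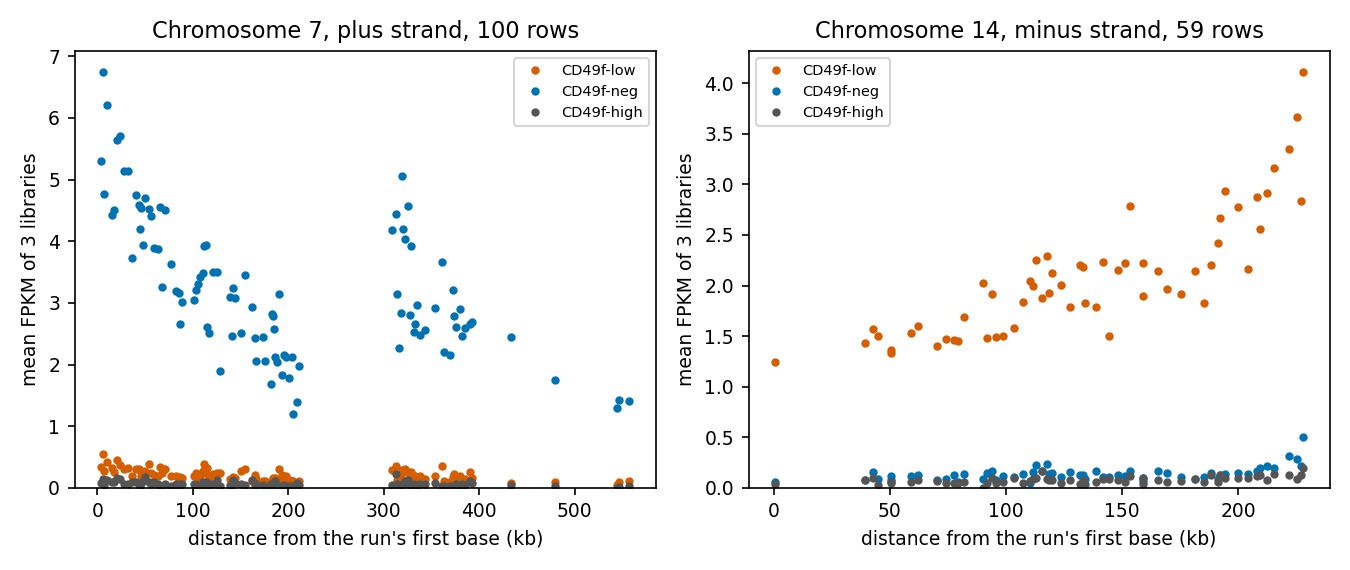
Mean FPKM of 3 libraries per row (y axis) against the distance of the row's midpoint from the run's first base in kb (x axis), for the 100 rows on chromosome 7 (left) and the 59 rows on chromosome 14 (right), in CD49f-low, CD49f-neg and CD49f-high cells. On chromosome 7 the CD49f-neg points decline from left to right and those of the other gates stay near 0. On chromosome 14 the CD49f-low points rise to the right, the end that comes first on the listed minus strand.

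The remaining runs had 4 to 7 rows, and several included the row of a named gene. By the rule that formed the runs, that row changed in the same direction as the others. The named genes were Lef1, Mgat5, Sobp, Col23a1, Myo10, Ptprj and Pde3a on the higher side and Zfp536 and Gria4 on the lower side. Mgat5, a glycosyltransferase that branches N-glycans, had 11.7, 12.7 and 14.9 FPKM in CD49f-low cells, against 0.926, 2.74 and 2.85 FPKM in CD49f-neg cells (a rise of 2.21 log2 units, SE 0.25, limma adjusted p = 0.000373). Among rows with 1 symbol, calls were also more frequent over long genomic spans. Of those over 200 kb 21.4% were called higher and 8.1% lower, against 9.7% and 0.9% of those under 2 kb.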

How the data were processed

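Gene expression was measured by RNA sequencing (NEBNext Ultra kit, per the labels' protocols) in 9 libraries, assigned to gates by title. The authors deposited 1 table of FPKM values with 84809 rows, each with an identifier, the symbols it covers (24946 rows had at least 1, and 987 of them 2 or more) and coordinates. FastQC, TopHat2, StringTie and the build GRCm38 are named in the submitters' processing notes, without versions or roles. Strand is not stated there, so overlapping or antisense genes are uncertain, as are near-identical histone genes. Depth was estimated from the spacing of low FPKM values of single-exon rows.

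Here log2(FPKM + 1) was fitted over all 9 libraries as 3 group means with limma 3.58.1 in R 4.3.3 (moderated test, mean-variance trend, 6 residual degrees of freedom) on the 20523 rows, of which 846 had several symbols, with Benjamini-Hochberg adjustment over all rows. Replicate numbers pair the samples in the values: the deviations of same-numbered libraries correlated at 0.252 to 0.520 and those of others at -0.453 to 0.118, while the labels give no source for the numbers. The block was an alternative.

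Named are Itga6, the 15 highest and 15 lowest fold changes among calls that hold (1 symbol, at least 10 FPKM in the higher gate, no overlap, outside marker lists, no predicted, mitochondrial or small RNA genes), up to 6 abundant genes each way, and up to 4 members per family by smallest adjusted p, of which a part is given; other family members, runs, clock genes and motifs were chosen after their values were seen. The gene lists and the comparison were chosen with earlier results of these data known, so their counts are descriptions. Alternatives were 5 scalings, a pseudocount of 0.1, no filter, a filter of 5 FPKM, no trend, the block, the 6 libraries alone, a 2-fold threshold and each library left out. Tables were handled in Python 3.11.15 with pandas 2.3.3 and numpy 2.4.6, and figures drawn with matplotlib 3.10.9.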

Additional observations from a re-analysis of the deposited data

How the results depend on the processing

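The number of rows called was 3160 and became 2103 on a common FPKM sum without the most abundant rows, 2088 with median centring, 2044 after quantile normalization, 1358 with a filter of 5 FPKM, 938 at a change of at least 2-fold and 5806 with the replicate block. Of these calls the higher ones were 1472, 1007, 1040, 1105, 716 and 4916 (1117 after median-of-ratios scaling) and the lower ones 631, 1081, 1004, 253, 222 and 890 (1093 after median-of-ratios scaling, and 1793 with both that scaling and the replicate block, an alternative chosen after seeing the data). Without 1 library the calls ran from 1614 to 3764, the higher ones from 1254 to 3147 and the lower ones from 339 to 617. Leaving out CD49f-neg replicate 3 gave a total of 1614, leaving out CD49f-low replicate 3 gave 1681 and leaving out CD49f-low replicate 2 gave 1726, and the lower count was 339 on leaving out CD49f-low replicate 3, 345 for CD49f-low replicate 2 and 352 for CD49f-neg replicate 2. The median fold change of all rows was 0.21, and 0.24 on a common FPKM sum, 0.11 on that sum without the most abundant rows, -0.02 with median centring, 0.01 after median-of-ratios scaling with or without the block, -0.01 after quantile normalization, 0.03 without a filter and 0.29 with a pseudocount of 0.1. Median-based and quantile scalings bring the median near 0 by their construction. Calls that hold were 948 higher and 534 lower, 1487 and 888 with the replicate block, 316 and 249 with the filter of 5 FPKM, and 600 to 1082 and 335 to 615 without 1 library, alternatives also added after seeing the data. Of 167 named rows, none reversed in any setting; in 62 cases a call was lost and in 10 gained. Among the other genes printed, limma's calls of Ntn1, Ephb3, Mmp2, Osr1 and P3h1 were lost without single libraries, and those of Edn3 and Sema3d under another setting. With 3 libraries per gate and no counts, precision rests on the spread between libraries. With the block in all 3 scalings, 941 of the 948 higher and all 534 lower calls that hold were kept; under median-of-ratios scaling with the block, Smoc1, Plod2 and Edn3 had limma adjusted p of 0.0592, 0.0524 and 0.0567.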
